A study of Homo sapiens with 23 samples.

Results

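Ribosome biogenesis is the production of the 40S and 60S ribosomal subunits in the nucleolus. RNA polymerase I transcribes the ribosomal RNA precursor, small nucleolar ribonucleoproteins guide its modification, and the small-subunit processome and later assembly factors cut and fold it together with ribosomal proteins. The demand for this machinery is set by growth signals, and in tumour cells the transcription factor MYC is a well known activator of its genes. The genes described here are a list of 56 such factors, taken by name, out of 21463 rows in the authors' deposited table of PC-3 cells that overexpress PARG. The rows of the table that carry these names were taken, and all 56 were present and tested in each of the 4 comparisons, so no member was lost to a filter on low values. They were sorted by function into 6 steps: 11 of RNA polymerase I and its initiation factors, 6 nucleolar scaffold and rDNA-associated proteins, 7 core proteins of box C/D and H/ACA particles, 15 processome components, 6 factors of late 40S maturation and 11 of 60S assembly.

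PC-3 is an established prostate cancer cell line. All cells studied carried a lentiviral construct with PARG behind the TetOne doxycycline-inducible promoter. PARG is the enzyme that degrades poly(ADP-ribose); its cDNA carried a cleavable mClover3, and each of the clones I4 and H6 grew from a single transduced cell. Groups with 500 ng/ml doxycycline for 72 h were compared with groups of the same clone and experiment without doxycycline, so the untreated groups carry the construct too. Experiment N used cells of passage 5 and experiment B cells of passage 7. Each of the 8 groups had 3 wells of a 6-well plate, apart from untreated H6 cells in experiment B, which had 2. The wells of a group are cultures of 1 clone, so a q-value reflects at most the spread between wells. No cells without the construct were analysed here, and an effect of doxycycline itself cannot be told apart from that of PARG.

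The authors' deposited table gives, for each comparison, the higher of the 2 group means (here called the level), a signed fold change and a q-value, and no value per library. The values behave as RPKM, reads scaled to exon length and library size, and are given as such, although the table does not name their unit. The level of the other group was obtained by dividing by the fold, on the assumption that the fold is the ratio of the means, and no SD can be given. A gene was called lower or higher where its q-value in the authors' deposited table was under 0.05. The sign was read from PARG, whose levels were 29.3, 56.2, 37.7 and 54.6 RPKM with doxycycline, against 21.6, 26.1, 26.9 and 27.4 RPKM without it, in I4 in experiment N, H6 in N, I4 in B and H6 in B of the authors' deposited table (q-values of 9.06e-09 and 1.37e-10 in I4, listed as 0 in H6). Values of the 4 comparisons are always given in this order. Depth was estimated from the steps that very low genes fall on, and came to 33600000 to 43100000 reads per library in experiment N and 19800000 to 24500000 in I4 in experiment B. It was not read for H6 in experiment B, where the groups differ in size. KRT8, KRT18 and EPCAM, markers of PC-3 as an epithelial line, were all detected, while KLK3, a prostate secretory gene that PC-3 lacks or barely expresses, was listed at 0 to 0.00695 RPKM.

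Sequences upstream of 4 of the 7 genes called lower in every comparison are shown first, because the hexamer CACGTG, the E-box that MYC and its partner MAX can bind, is found in some of these promoters and not in others. Each is given from RefSeq (GRCh38.p14) 5′ to 3′ on the gene's strand, from 250 bases before the annotated start to 10 bases into the transcript, with CACGTG in capitals. UTP20 (chr12:101279855-101280114, plus strand) and RRP9 (chr3:51941895-51942154, minus strand) hold it 10 and 5 bases before the start. UTP14A (chrX:129905914-129906173, plus strand) holds it 241 bases before the start. POLR1A (chr2:86105877-86106136, minus strand) has none. Its whole window lies inside the gene as GENCODE v29 places it (86020216 to 86106155), so the absence holds for the RefSeq start.
UTP20: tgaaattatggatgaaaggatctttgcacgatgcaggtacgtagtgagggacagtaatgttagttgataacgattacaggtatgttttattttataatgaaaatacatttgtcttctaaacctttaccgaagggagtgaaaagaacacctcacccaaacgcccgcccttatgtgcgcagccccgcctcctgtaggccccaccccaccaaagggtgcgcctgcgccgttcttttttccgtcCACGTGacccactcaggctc
RRP9: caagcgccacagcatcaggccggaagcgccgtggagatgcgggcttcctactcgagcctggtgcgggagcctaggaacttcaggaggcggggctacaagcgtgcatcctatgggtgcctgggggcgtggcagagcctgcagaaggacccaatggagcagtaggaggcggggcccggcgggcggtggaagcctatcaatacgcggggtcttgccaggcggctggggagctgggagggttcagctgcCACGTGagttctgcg
UTP14A: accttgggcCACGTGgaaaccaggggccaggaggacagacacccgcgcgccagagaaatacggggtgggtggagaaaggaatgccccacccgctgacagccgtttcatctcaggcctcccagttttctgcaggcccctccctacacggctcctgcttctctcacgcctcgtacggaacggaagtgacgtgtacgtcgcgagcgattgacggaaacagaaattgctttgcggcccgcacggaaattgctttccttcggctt
POLR1A: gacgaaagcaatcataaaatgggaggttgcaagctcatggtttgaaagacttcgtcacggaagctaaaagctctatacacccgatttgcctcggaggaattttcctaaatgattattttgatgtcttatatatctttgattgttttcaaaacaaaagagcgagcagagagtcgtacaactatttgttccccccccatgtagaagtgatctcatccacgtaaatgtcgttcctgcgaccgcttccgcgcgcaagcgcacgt

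Over windows from 250 bases before to 50 bases after the start, 17 of the 50 members with a RefSeq window held CACGTG (34.0%), against 897 of 8650 genes with a mean level of at least 1 RPKM (10.4%) and 2030 of all 27305 windows (7.43%). CACGTG reads the same on both strands and cannot overlap the other motif searched. Among members called lower in at least 3 comparisons, 9 of 16 windows held it (56.2%), against 8 of 34 windows of the other members (23.5%). That split uses the calls themselves and was not tested. The windows with CACGTG include those of NOP10, the only member called higher, and of GNL2, LTV1 and NOC3L, which had no call. CCGGAAG, the core bound by ETS factors such as GABPA, was searched on both strands and was found in 20 of 50 members, against 1835 of 8650 genes of at least 1 RPKM (21.2%). Here the members called lower in at least 3 comparisons had 6 of 16 windows with a match (37.5%), against 14 of 34 for the other members (41.2%). A match describes the letters of the window and is no evidence of binding. BOP1, NOLC1, NOP58, POLR1E, RRP12 and TCOF1 have no window in the table used. All of them but NOP58 were called lower in at least 3 comparisons, so that side of both splits covers 16 of its 21 genes.

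With doxycycline, 42 of the 56 genes were called lower in at least 1 comparison, 14 in none, and 1 was called higher. The share of all genes called in at least 1 comparison was not counted, so these numbers have no background, unlike the counts per comparison that follow. The authors' deposited table calls 35 of the 56 genes lower in I4 in experiment N, where 8.53% of all tested genes and 12.6% of genes of at least 1 RPKM were called lower. In H6 in experiment N 28 were called lower (background 7.07% of all tested genes and 10.5% of genes of at least 1 RPKM). In I4 in experiment B 30 were called lower (background 6.59% and 9.02%), and in H6 in experiment B 11 (background 3.93% and 5.35%). NOP10 was the only member called higher, in I4 and in H6 in experiment N, where 7.18% and 6.57% of all tested genes were called higher. No member was called higher in experiment B, where the background was 7.46% in I4 and 3.63% in H6. In RNA of whole wells, less RNA per cell and fewer cells with the transcript cannot be told apart. Markers moved with the treatment too. KRT8 and KRT18 were called higher in all 4 comparisons of the authors' deposited table, by folds of 1.20 to 1.33, with a summed level of the 3 epithelial markers of 131.1 to 182.3 RPKM with doxycycline and 108.8 to 139.5 RPKM without it. EPCAM stood at 4.77 to 5.66 RPKM with doxycycline and 4.15 to 5.15 RPKM without it, and was called higher in H6 in experiment N. Of 3 markers of other cells, PECAM1 was 1.36-fold, 1.42-fold, 1.52-fold and 1.56-fold lower and called in all but I4 in experiment N, at 0.505 to 0.881 RPKM with doxycycline and 0.719 to 1.34 RPKM without it in the authors' deposited table. COL1A1 was called lower in H6 in experiment N (1.16-fold), and PTPRC, at up to 0.0515 RPKM, had no call in the authors' deposited table. The summed level of these 3 was 6.65 to 15.8 RPKM with doxycycline and 7.60 to 18.4 RPKM without it. COL1A1 made up most of it, at 5.74 to 15.3 RPKM with doxycycline and 6.23 to 17.7 RPKM without it. Each clone grew from a single transduced cell, so these transcripts need not come from other cells. None of the 3 was at 0, and their part in the lower ribosome biogenesis genes was not tested. Unadjusted p-values are not part of the table used here. The size of the change was small: the median log2 fold of the 56 genes was -0.25, -0.20, -0.22 and -0.13, beside medians of -0.008, -0.006, 0.002 and 0.008 over all genes of at least 1 RPKM. The largest fold of any member, in the authors' deposited table, was 1.54, and the smallest fold called was 1.14. In the direction of their folds alone, 50, 47, 52 and 50 of the 56 lay below no change (89.3%, 83.9%, 92.9% and 89.3%), against 51.7%, 51.5%, 49.5% and 48.3% of genes of at least 1 RPKM.

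**Figure D1:**
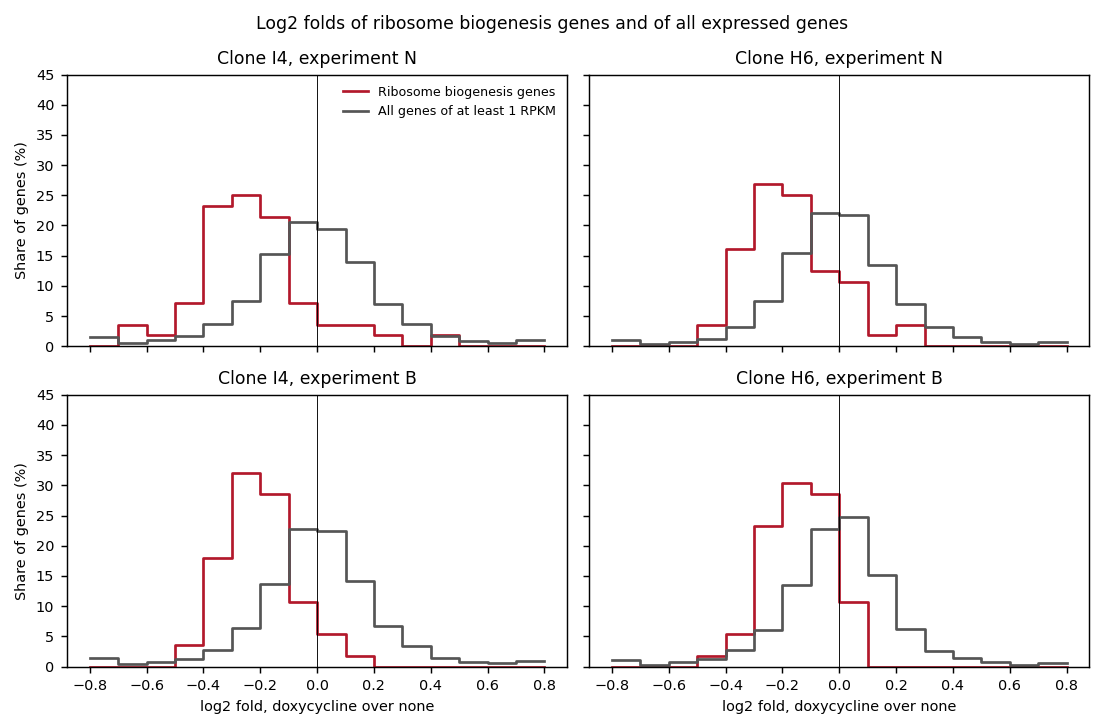
Share of genes (%) by log2 fold, doxycycline over none, in bins of 0.1, for the 56 ribosome biogenesis genes (red) and all genes with a mean level of at least 1 RPKM (grey), 1 panel per comparison; the end bins also hold genes beyond them. The red outlines lie left of the grey ones in all 4 panels, with medians of -0.25, -0.20, -0.22 and -0.13.

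Across the 4 comparisons, 7 genes were called lower every time: POLR1A, NOLC1, TCOF1, UTP14A, UTP20, RRP9 and BOP1 (background 1.97% of the 15063 genes tested in all 4, and 2.65% of those of at least 1 RPKM). None was called higher every time (background 1.73%). A further 14 were called lower in 3 comparisons, 13 in 2 and 8 in 1, while 14 were never called lower. The comparisons share no library. The H6 cells of experiment B, with 2 untreated libraries, set the count: without that comparison, 19 genes were called lower in the other 3. No background was counted for that number, or for genes called in exactly 3, 2 or 1 comparisons or in none. Calls shared by the experiments numbered 24 in clone I4, of 35 in N and 30 in B, and 8 in clone H6, of 28 in N and 11 in B. Of all genes of at least 1 RPKM, 6.29% were called lower in both experiments in I4 and 4.13% in H6. The log2 fold was lower in I4 than in H6 for 46 of the 56 genes in experiment N (82.1%, against 51.2% of genes of at least 1 RPKM). In experiment B this held for 42 (75.0%, against 51.9%). These are counts of point values that include genes above no change. Among genes below no change in both clones, 40 of 46 members fell more in I4 in experiment N (87.0%, against 57.9%). In experiment B 38 of 49 did (77.6%, against 57.0%). No test of a difference between the clones or the experiments could be made, because no value per library was analysed here. The PARG fold in the authors' deposited table was 1.35 in experiment N and 1.40 in experiment B for I4, against 2.15 and 1.99 for H6.

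**Figure D2:**
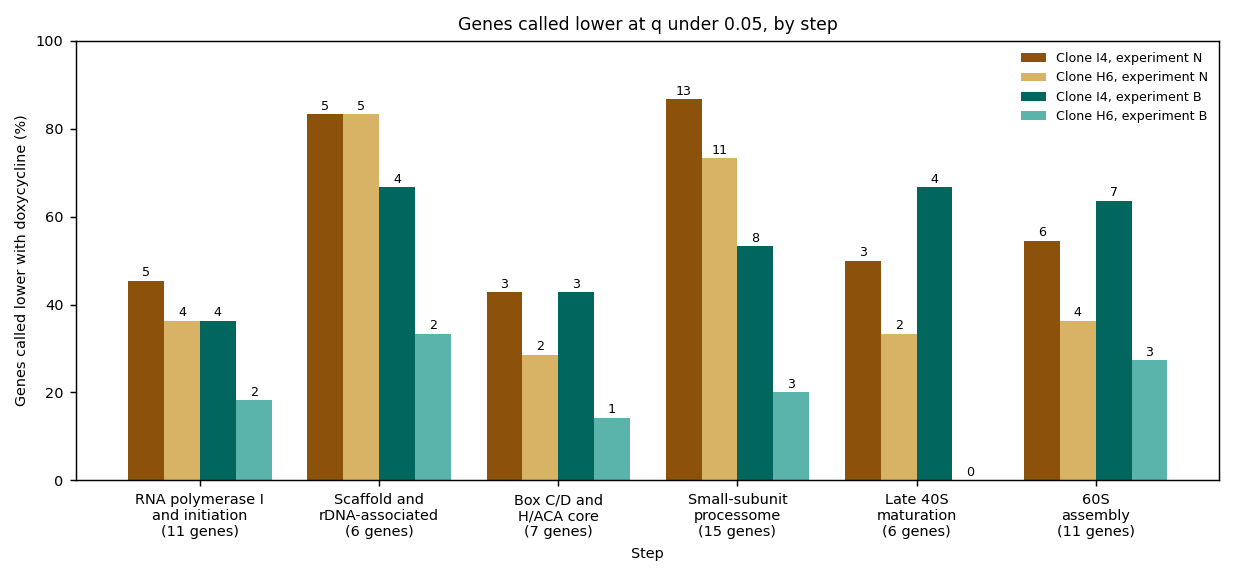
Share of the genes of each step (%) called lower with doxycycline at a q-value under 0.05, with 1 bar per comparison and the number of genes above it. Scaffold and rDNA-associated genes (5 of 6 in both clones) and processome genes (13 of 15 in I4 and 11 of 15 in H6) had the highest shares in experiment N, and H6 in experiment B the lowest count in each step.

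RNA polymerase I makes the ribosomal RNA precursor with the help of the factor SL1, built from TAF1A to TAF1D with the TATA-binding protein, of UBTF, which keeps rDNA in an open state, and of RRN3, which joins the polymerase to the promoter. Of these 11 genes 5, 4, 4 and 2 were called lower in the 4 comparisons and none higher. POLR1A, the largest subunit of the polymerase (chromosome 2, 86020216 to 86106155, minus strand), averaged 8.65, 5.93, 10.6 and 7.21 RPKM with doxycycline, against 11.4, 8.16, 12.5 and 9.62 RPKM without it in the authors' deposited table. Its folds were 1.32-fold, 1.37-fold, 1.18-fold and 1.33-fold lower, with q-values of 2.55e-09 to 0.00668, and every group with doxycycline lay below its own untreated group. The polymerase-associated subunit POLR1E averaged 10.7, 11.9, 12.7 and 14.6 RPKM with doxycycline, against 14.0, 14.1, 16.4 and 16.8 RPKM without it in the authors' deposited table. It was called lower in 3 comparisons, with a q-value of 0.192 in H6 in experiment B. TAF1A of SL1 averaged 6.09, 5.72, 7.13 and 6.05 RPKM with doxycycline, against 7.19, 7.16, 8.49 and 7.45 RPKM without it in the authors' deposited table, with folds of 1.18-fold, 1.25-fold, 1.19-fold and 1.23-fold lower. The missed call was again H6 in experiment B, with a q-value of 0.22.

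The other members of this step were less uniform. POLR1B, the second large subunit, was called lower in both clones in experiment N, 1.21-fold and 1.22-fold, and had q-values of 0.0631 and 0.0935 in experiment B in the authors' deposited table. TAF1C was called in experiment B, 1.27-fold lower in I4 and 1.31-fold lower in H6, and in neither clone in experiment N, at 2.34 to 5.49 RPKM with doxycycline and 2.97 to 5.84 RPKM without it in the authors' deposited table. UBTF was called lower in I4 in experiment N (1.15-fold, q = 0.0302 in the authors' deposited table) and in no other comparison. Members with no call were POLR1C and POLR1D, which RNA polymerase III also uses, TAF1B, TAF1D and RRN3. Genes of the opposite strand cover 18.2% of the exon length of POLR1C. TAF1D, with the highest mean log2 fold of the step, averaged 7.58, 7.24, 11.2 and 9.00 RPKM with doxycycline, against 6.73, 6.22, 11.7 and 8.75 RPKM without it in the authors' deposited table, and no comparison of it was called. Small RNA genes of the same strand, SNORA1 and SNORD5 among them, cover 11.2% of its exon length.

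Nucleolar scaffold proteins organise the nucleolus and bring RNA polymerase I and modification enzymes together. Of 6 such genes, 5, 5, 4 and 2 were called lower, and the median log2 fold was -0.35, -0.26, -0.28 and -0.17, the lowest of the 6 steps, tied with late 40S maturation in I4 in experiment B. TCOF1 encodes treacle, which binds RNA polymerase I and UBTF at rDNA (chromosome 5, 150357629 to 150400308, plus strand), and averaged 31.9, 27.9, 31.0 and 28.3 RPKM with doxycycline, against 43.9, 34.5, 39.9 and 35.3 RPKM without it in the authors' deposited table. It was 1.38-fold, 1.24-fold, 1.29-fold and 1.25-fold lower, with q-values of 3.58e-06 to 0.00123. The treacle levels with doxycycline, up to 31.9 RPKM, all lay below the lowest untreated level, 34.5 RPKM. NOLC1, which encodes the small nucleolar ribonucleoprotein chaperone Nopp140 (chromosome 10, 102152176 to 102163871, plus strand), averaged 28.9, 30.7, 35.3 and 36.8 RPKM with doxycycline, against 36.1, 35.8, 46.1 and 45.3 RPKM without it in the authors' deposited table. NOLC1 was 1.25-fold, 1.17-fold, 1.30-fold and 1.23-fold lower, with q-values of 9.98e-07 to 0.0142.

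MYBBP1A, a nucleolar repressor of RNA polymerase I transcription and processing factor, averaged 18.0, 18.3, 11.2 and 13.1 RPKM with doxycycline, against 24.3, 23.1, 14.4 and 15.2 RPKM without it in the authors' deposited table, and was called in all but H6 in experiment B (q = 0.102). DDX21, a helicase that couples rDNA transcription with RNA modification, averaged 53.5, 55.4, 79.2 and 74.6 RPKM with doxycycline, against 67.7, 63.3, 90.7 and 79.0 RPKM without it in the authors' deposited table. Its folds ranged from 1.06 in H6 in experiment B, which was not called, to 1.27 in I4 in experiment N. NCL, which encodes nucleolin, was called in experiment N alone, 1.29-fold and 1.27-fold lower, with q-values of 0.182 and 0.456 in experiment B in the authors' deposited table. NPM1, the nucleophosmin gene and the most abundant member, averaged 489.8, 449.5, 676.0 and 583.0 RPKM with doxycycline, against 544.8, 488.1, 729.1 and 610.4 RPKM without it in the authors' deposited table. No NPM1 comparison was called, and its folds were 1.05 to 1.11 lower.

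**Figure D3:**
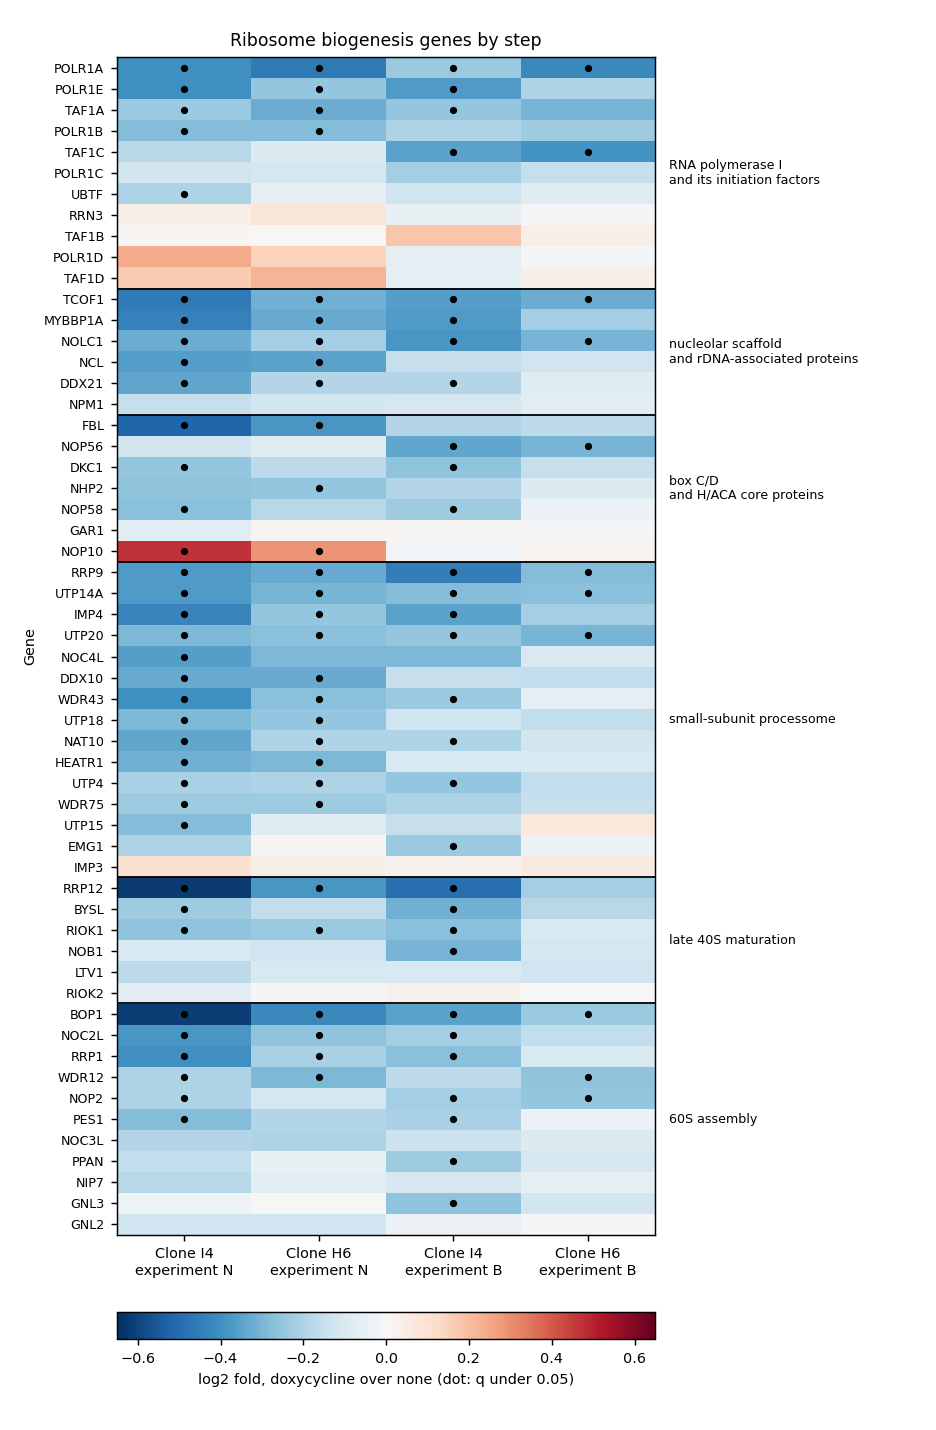
Log2 fold (colour, doxycycline over none) of each of the 56 genes in the 4 comparisons, ordered within each step by the mean of the 4; a dot marks a q-value under 0.05. Most cells are blue (lower), NOP10 has the only red cells with a dot, both in experiment N, and POLR1A, TCOF1, NOLC1, RRP9, UTP14A, UTP20 and BOP1 have dots in every column.

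The core proteins of small nucleolar ribonucleoproteins carry out RNA modification: FBL, the fibrillarin gene, encodes the methyltransferase of box C/D particles, which also contain NOP56 and NOP58, and DKC1 encodes the pseudouridine synthase dyskerin of H/ACA particles, which also contain GAR1, NHP2 and NOP10. This was the step with no gene called lower in more than 2 comparisons. FBL averaged 127.0, 114.8, 102.7 and 102.9 RPKM with doxycycline, against 181.6, 149.3, 116.9 and 115.5 RPKM without it in the authors' deposited table. It was called lower in experiment N (q = 9.92e-06 in I4 and 0.00897 in H6) and was 1.14-fold and 1.12-fold lower without a call in experiment B. NOP56 had its calls in experiment B (1.27-fold and 1.23-fold lower) and folds of 1.10 and 1.06 lower without a call in experiment N of the authors' deposited table. NOP58 and DKC1 were called in both experiments in I4 and in neither in H6, and the I4 folds in the authors' deposited table were 1.17 to 1.21, lower with doxycycline.

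NOP10 was the only member called in the other direction, although others, such as IMP3, had folds above no change without a call. This smallest H/ACA protein (chromosome 15, 34341713 to 34343177, minus strand, with 554 bases of exon) averaged 155.2, 177.0, 176.3 and 218.1 RPKM with doxycycline, against 112.0, 144.4, 178.6 and 215.6 RPKM without it in the authors' deposited table. It was 1.39-fold higher in I4 and 1.23-fold higher in H6 in experiment N, with q-values of 0.00642 and 0.000539. In experiment B the treated and untreated levels lay within 1.01-fold of each other, and neither clone was called. Of its H/ACA partners, NHP2 was called lower in H6 in experiment N (1.19-fold, q = 0.00304 in the authors' deposited table), and GAR1 lay within 1.05-fold of its untreated level in every comparison. Part of the exons of NHP2, 27.4% of their length, overlap RMND5B on the opposite strand, and the libraries of experiment N keep both strands.

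The small-subunit processome assembles on the nascent precursor around the U3 particle, and its early parts are named UTP proteins after U3. Of 15 genes 13, 11, 8 and 3 were called lower and none higher. RRP9, the U3-specific protein (chromosome 3, 51933430 to 51941941, minus strand), averaged 34.2, 25.8, 20.4 and 16.1 RPKM with doxycycline, against 44.3, 32.5, 27.8 and 19.6 RPKM without it in the authors' deposited table. RRP9 was 1.29-fold, 1.26-fold, 1.36-fold and 1.22-fold lower, with q-values of 3.38e-07 to 0.0351. UTP14A, which recruits a helicase that disassembles the processome in yeast (chromosome X, 129906121 to 129929761, plus strand), averaged 10.1, 10.1, 16.4 and 17.7 RPKM with doxycycline, against 13.0, 12.4, 20.0 and 21.4 RPKM without it in the authors' deposited table. Its folds were 1.29-fold, 1.23-fold, 1.22-fold and 1.20-fold lower, with q-values of 2.84e-05 to 0.0272. UTP20, a very large repeat protein of the particle (chromosome 12, 101280109 to 101386616, plus strand), averaged 9.46, 8.91, 16.3 and 13.8 RPKM with doxycycline, against 11.5, 10.8, 19.4 and 17.0 RPKM without it in the authors' deposited table. The folds of UTP20 hardly varied, 1.22-fold, 1.21-fold, 1.19-fold and 1.23-fold lower, with q-values of 0.000656 to 0.00464. Within each of these 3 genes the untreated levels of experiments N and B lay further apart than the treated and untreated levels of a clone. The promoters of these 3 genes, shown above, hold CACGTG, as do windows of some members never called lower, and a link with the fall was not tested.

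**Figure D4:**
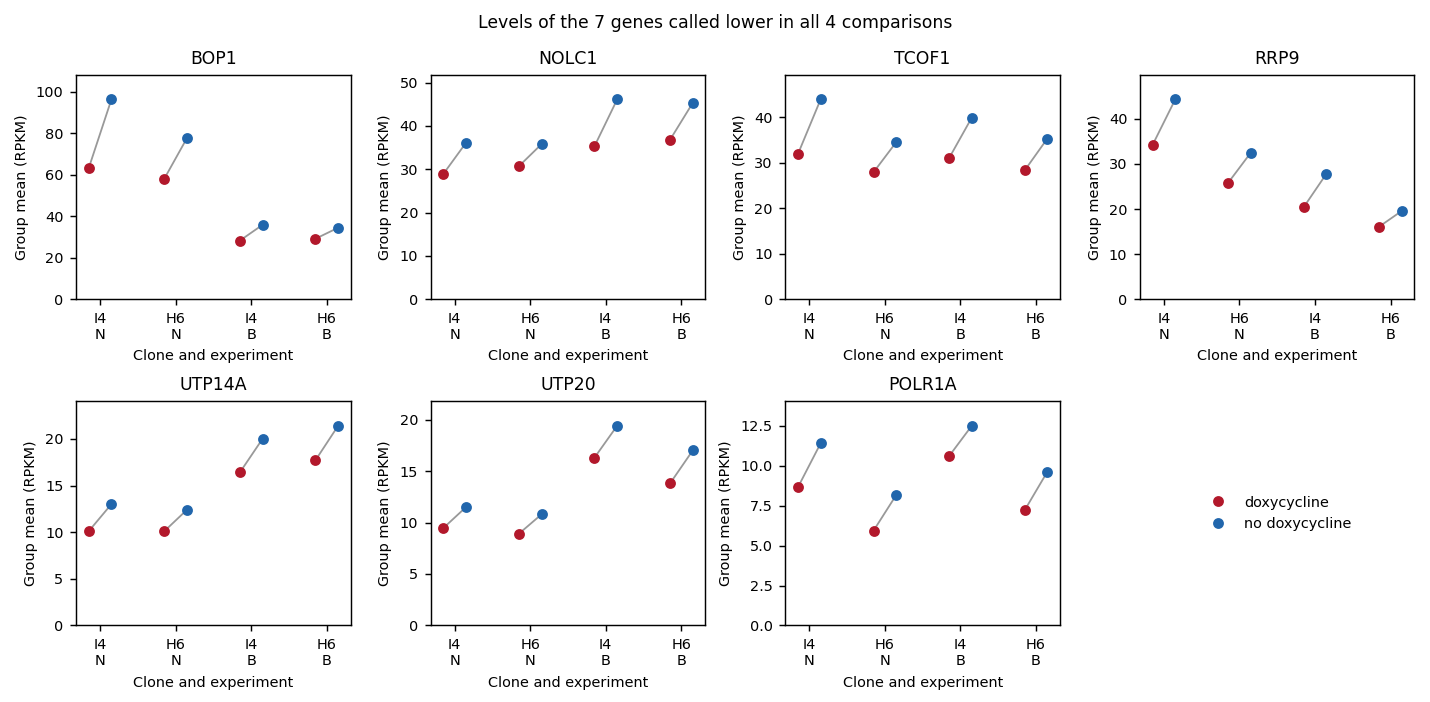
Group means (RPKM, linear axes from 0) of the 7 genes called lower in all 4 comparisons, with doxycycline (red, left) and without (blue, right), for each clone and experiment; a line joins the groups compared, and the lower mean was obtained from the fold. Every red point lies below its blue partner, which follows from the choice of these genes. The height of the pairs differs between experiments, most for BOP1.

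Several other processome genes missed a single call. WDR43, one of the UTP proteins linked to rDNA transcription, averaged 22.0, 19.3, 28.7 and 24.6 RPKM with doxycycline, against 29.1, 23.3, 33.9 and 25.5 RPKM without it in the authors' deposited table. Its groups with doxycycline lay below their untreated groups in all 4 comparisons, by little in H6 in experiment B. UTP4, of the same subcomplex, averaged 12.2, 11.4, 14.3 and 13.9 RPKM with doxycycline, against 14.2, 13.1, 16.9 and 15.5 RPKM without it in the authors' deposited table. IMP4, a partner of U3, averaged 19.5, 19.7, 16.0 and 18.1 RPKM with doxycycline, against 26.2, 23.5, 20.4 and 21.2 RPKM without it in the authors' deposited table. NAT10, an RNA acetyltransferase of the 18S precursor, averaged 22.7, 25.3, 29.2 and 32.8 RPKM with doxycycline, against 28.7, 29.0, 33.5 and 35.6 RPKM without it in the authors' deposited table. All 4 were called lower in I4 and H6 in experiment N and in I4 in experiment B, and had q-values of 0.128 (IMP4) or more in H6 in experiment B. UTP18, WDR75, HEATR1 and DDX10 were called in experiment N in both clones, 1.17-fold to 1.26-fold lower, and not in experiment B, where the authors' deposited table gives folds of 1.07 to 1.15 in the same direction. UTP15 and NOC4L were called in I4 in experiment N alone, and EMG1, a methyltransferase, in I4 in experiment B alone. IMP3, another U3 partner, was never called and averaged 19.0, 16.8, 13.8 and 12.0 RPKM with doxycycline, against 17.7, 16.4, 13.5 and 11.5 RPKM without it in the authors' deposited table. Exons of IMP3 (59.3% of their length), EMG1 (49.5%) and HEATR1 (23.2%) overlap genes of the opposite strand, so part of their reads in experiment N can belong to those genes.

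Late 40S maturation takes place partly in the cytoplasm, where NOB1 makes the last cut of 18S RNA and the kinases RIOK1 and RIOK2 and the factor LTV1 act on the nearly finished subunit. Of 6 genes 3, 2, 4 and 0 were called lower. RRP12, an export factor of pre-ribosomes in yeast (chromosome 10, 97356358 to 97426076, minus strand), had the lowest mean log2 fold of all members, -0.43. It averaged 7.27, 8.84, 6.63 and 8.53 RPKM with doxycycline, against 11.2, 11.5, 9.34 and 9.95 RPKM without it in the authors' deposited table. RRP12 was 1.54-fold, 1.30-fold, 1.41-fold and 1.17-fold lower, with q-values listed as 0, 4.89e-06, 6.41e-09 and 0.105 in the authors' deposited table, so H6 in experiment B was not called. RIOK1 averaged 6.38, 6.60, 9.21 and 9.34 RPKM with doxycycline, against 7.64, 7.81, 11.1 and 10.0 RPKM without it in the authors' deposited table, and was called in all but that comparison (q = 0.831). BYSL was called in I4 in both experiments (1.17-fold and 1.24-fold lower) and NOB1 in I4 in experiment B (1.23-fold lower) in the authors' deposited table. LTV1 and RIOK2 had no call, and RIOK2 averaged 5.94, 5.20, 8.14 and 5.91 RPKM with doxycycline, against 6.25, 5.18, 7.96 and 5.89 RPKM without it in the authors' deposited table. Exons of LTV1 (34.8% of their length) overlap genes of the same strand, and those of NOB1 (20.2%) a gene of the opposite strand.

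For the 60S subunit, PES1, BOP1 and WDR12 form the PeBoW complex needed for maturation of the long ribosomal RNAs. Of 11 genes in this step 6, 4, 7 and 3 were called lower. BOP1 (chromosome 8, 144262102 to 144291370, minus strand) averaged 63.1, 58.0, 28.2 and 29.1 RPKM with doxycycline, against 96.2, 77.6, 35.8 and 34.4 RPKM without it in the authors' deposited table. It was 1.52-fold, 1.34-fold, 1.27-fold and 1.18-fold lower, with q-values of 8.42e-08 to 0.044. Its untreated level was 0.37-fold in I4 and 0.44-fold in H6 in experiment B relative to experiment N, while its fall was called in both experiments. WDR12 averaged 5.57, 4.17, 7.37 and 5.20 RPKM with doxycycline, against 6.41, 5.08, 8.29 and 6.24 RPKM without it in the authors' deposited table, and missed its call in I4 in experiment B (q = 0.139). PES1 was called in I4 alone, 1.21-fold and 1.16-fold lower in the authors' deposited table.

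NOC2L, an assembly factor that also inhibits histone acetylation, averaged 75.7, 80.3, 49.7 and 55.8 RPKM with doxycycline, against 98.7, 96.1, 58.0 and 62.2 RPKM without it in the authors' deposited table. RRP1, a nucleolar 60S factor, averaged 24.8, 27.5, 19.6 and 24.3 RPKM with doxycycline, against 32.6, 31.9, 23.6 and 26.0 RPKM without it in the authors' deposited table. Both were called lower in all but H6 in experiment B, with q-values of 0.307 and 0.787 there. NOP2, a methyltransferase of 28S RNA, averaged 13.8, 15.1, 15.3 and 17.1 RPKM with doxycycline, against 15.8, 16.2, 17.9 and 20.3 RPKM without it in the authors' deposited table. NOP2 was called in all but H6 in experiment N (q = 0.442), and 54.4% of its exon length overlaps a gene of the same strand, AC006064.6. GNL3, the nucleostemin gene, and PPAN were called in I4 in experiment B alone, 1.20-fold and 1.18-fold lower in the authors' deposited table, and 59.8% of the exon length of PPAN is shared with P2RY11 and a read-through transcript. GNL2, NOC3L and NIP7 had no call, and 20.2% of the exon length of NIP7 overlaps COG8 on the opposite strand. GNL2, with the highest mean log2 fold of the step, averaged 23.9, 22.1, 37.7 and 36.9 RPKM with doxycycline, against 26.2, 24.2, 38.7 and 37.3 RPKM without it in the authors' deposited table.

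A wider list of 110 other genes of ribosome production, none of them among the 56, was read in the same way: 37, 18, 28 and 9 were called lower (33.6%, 16.4%, 25.5% and 8.18%, against 12.6%, 10.5%, 9.02% and 5.35% of genes of at least 1 RPKM) and 4, 2, 3 and 0 higher. Their median log2 folds were -0.15, -0.09, -0.13 and -0.07. In all 4 comparisons 6 were called lower and none higher. CD3EAP, the RNA polymerase I subunit also named POLR1G, averaged 8.16, 7.13, 9.55 and 9.52 RPKM with doxycycline, against 12.0, 9.59, 12.3 and 12.1 RPKM without it in the authors' deposited table. It was 1.47-fold, 1.35-fold, 1.29-fold and 1.27-fold lower, while 45.1% of its exon length overlaps ERCC1 and PPP1R13L on the opposite strand. Of the 8 other polymerase subunits, CD3EAP among them, 1, 1, 2 and 1 were called lower and 2, 2, 0 and 0 higher. All tested genes were called higher in 7.18%, 6.57%, 7.46% and 3.63%. POLR2L was called higher in experiment N, 1.34-fold in I4 and 1.29-fold in H6. UTP25 averaged 2.97, 3.37, 4.22 and 4.76 RPKM with doxycycline, against 4.51, 4.44, 6.71 and 6.38 RPKM without it in the authors' deposited table, with folds of 1.52-fold, 1.32-fold, 1.59-fold and 1.34-fold lower. PDCD11 and NOP14 encode large processome proteins, and the falls in the authors' deposited table lay between 1.20 and 1.37 for PDCD11 and between 1.19 and 1.33 for NOP14. For RUVBL1, a helicase that helps to assemble box C/D particles, and RRS1, a 60S factor, the authors' deposited table gives falls between 1.15 and 1.30, the same range for both. By group, 1 of 8 other polymerase subunits, 1 of 9 snoRNP assembly factors and 3 of 39 processome and 40S factors were called lower in all 4. The same held for 1 of 40 factors of 60S assembly and export and 0 of 14 exosome genes. The background was 1.97% of genes tested in all 4, and 2.65% of those of at least 1 RPKM. Some shares per comparison lay near the background of genes of at least 1 RPKM. These were the other polymerase subunits in experiment N (12.5% in both clones) and the 60S factors in H6 in experiment N (12.5%). The snoRNP assembly factors were near it in I4 in experiment B (11.1%). The exosome, which trims precursor RNA, had 3, 2, 1 and 0 of 14 genes called lower, or 21.4%, 14.3%, 7.14% and 0%. Its share lay near the same background in H6 in experiment N (10.5%) and in I4 in experiment B (9.02%).

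Levels without doxycycline differed between clones and experiments. Over the 56 genes, the untreated H6 to I4 ratio had a median of 0.95 in experiment N (0.72 for POLR1A to 1.31 for NOC4L) and 0.94 in experiment B (0.70 for RRP9 to 1.55 for NOC4L), beside medians of 1.02 and 1.03 over genes of at least 1 RPKM. The untreated ratio of experiment B to experiment N ran from 0.37 for BOP1 to 1.74 for TAF1D in I4, with a median of 1.19, and from 0.40 for GAR1 to 1.72 for UTP14A in H6, with a median of 1.14. Over genes of at least 1 RPKM those medians were 1.02 and 1.00. The experiments differ in passage, sequencing centre and library kit, and these cannot be told apart. No test of these ratios was possible.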

How the data were processed

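Poly(A)-selected RNA of 23 libraries was sequenced, per the labels' protocols; experiment N used a kit that keeps both strands and experiment B a strand-specific one. The build was hg38 per the submitters' processing notes, while the sources used here name no aligner, counter, annotation or test. The deposited table holds, as the authors' score, the higher group mean. It was read as RPKM because level times GENCODE v29 exon length fell on steps in very low genes (75.3% to 84.5% in the step bins). Step bins were picked as those with at least 60 genes, so a high share was partly built in and does not prove the unit. The authors' fold is a signed score, and the authors' q-value is an adjusted p-value, listed as 0 for 71 to 195 genes.

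Folds were put on the log2 scale and calls counted with Python 3.11.15, pandas 2.3.3 and numpy 2.4.6; the counting was tested on simulated data. Tests on values per library, planned in the design, could not be run on this table. The 56 genes, the 6 steps and the wider list were chosen with earlier results of these data known. Both groups' levels are given for genes called lower in 3 or 4 comparisons, for the extremes of each step and for part of the wider genes called in all 4. Exon overlaps and gene positions come from GENCODE v29 (GRCh38). Part of the planned marker check is not reported here.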

Additional observations from a re-analysis of the deposited data

How the results depend on the processing

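A q-value under 0.01 left 3 genes called lower in all 4 comparisons and 6 called lower in H6 in experiment B; asking for an absolute log2 fold of 0.25 or more left 3 in all 4 and 18 in I4 in experiment B. Without H6 in experiment B the other 3 comparisons shared 19. The other counts stayed within 1.5 times under these settings, a q-value under 0.1, a mean level of at least 10 RPKM, and without each other comparison. A filter at 1 RPKM removed no member, since the smallest mean level was 4.36 RPKM, and so tests nothing. Leaving out a comparison can only keep or raise the number of genes shared by the rest. The median log2 fold was -0.28, -0.21 and -0.23 in I4 in N, H6 in N and I4 in B over the 42 genes of at least 10 RPKM, and -0.24 and -0.19 in I4 and H6 in N after subtraction of the median of all genes. Of 84 folds of the 21 genes called in 3 or 4 comparisons, none could change sign with that subtraction. The medians subtracted were -0.008 to 0.008, and the smallest fall was a log2 fold of -0.06 (WDR43 in H6 in experiment B). Of the same 84 folds, 22 were no longer called at a q-value under 0.01. The 84 include 1 uncalled fold for each of the 14 genes called in 3 comparisons, which had no call to lose. No paired analysis was possible because no value per library was analysed here; for the same reason leaving out a replicate and another pseudocount were not run. Called falls began at 1.15-fold, 1.14-fold, 1.14-fold and 1.18-fold in the 4 comparisons, while falls of up to 1.20-fold, 1.22-fold, 1.22-fold and 1.23-fold were not called, so a missing call in that range does not show that a gene did not change.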
